A study of Mus musculus with 2 samples.

Results

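The genes described here make cholesterol from acetyl-CoA or sense, carry, store and break down sterols. They were read in the mandibular prominence, the facial swelling that forms the lower jaw, of mouse embryos at stage E11.5. The list holds 34 gene symbols chosen by name, with earlier results of these data known, and 33 of them occurred in both deposited tables, out of 30723 gene symbols in all. The remaining symbol, Msmo1, is the newer name of Sc4mol, under which the tables list the gene. The Kif3a mutant library came from embryos with floxed Kif3a alleles and Wnt1-Cre (Kif3a f/f ; Wnt1-Cre), and the control library from embryos whose genotype the labels give only as control. Both were on a mixed CD1 background, and 10 embryos were pooled for each library. Kif3a encodes a subunit of the kinesin-2 motor that builds primary cilia. Wnt1-Cre acts in neural crest cells, so other cells of the prominence, such as epithelium, muscle precursors, endothelium and blood, keep the gene.

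Cholesterol is built by way of mevalonate, farnesyl diphosphate, squalene and lanosterol, and a side branch gives the isoprenoids that anchor many proteins to membranes. When sterol in the endoplasmic reticulum is low, the carrier Scap escorts the SREBP transcription factors to the Golgi, and after cleavage they switch on the genes of synthesis. Insig proteins hold them back when sterol is plentiful. Hedgehog signalling depends on sterols in several ways: the ligand Shh carries cholesterol bound to its end, Ptch1 resembles sterol transporters, and Smoothened, which acts in the primary cilium, binds sterols. The series concerns GLI processing at cilia and tongue development.

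Each group is 1 library, so no test between the groups exists and no difference below has a replicate check. Levels are in FPKM, fragments scaled to transcript length and to all mapped fragments, summed over the transcripts of a gene. Log2 ratios set the mutant over the control after 1 FPKM was added to both values, which understates differences of low genes. Plain ratios of FPKM carry a 95% exact Clopper-Pearson interval on approximate fragment numbers, which covers counting error only. The tables hold about 24500000 fragments in the mutant and 24700000 in the control. Kif3a stood at 5.39 FPKM in the mutant and 11.46 in the control, a ratio of 0.471 (0.431 to 0.514), over the whole transcript and all cells of the tissue. All 8 mesenchymal markers looked for were present in both libraries, with summed levels of 616 FPKM in the mutant and 660 in the control. The labels give E11.5 for both libraries, while the names of the tables give e11 for the mutant and e11.5 for the control, with different run numbers. Effects of genotype, run and a possible gap in stage cannot be told apart.

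No sterol gene with a mean of at least 1 FPKM was 1.5-fold higher or lower in the mutant. Of the 33 genes, 32 passed this filter on the mean of both libraries, all but Lrp2, and were set beside the 12259 genes that passed the same filter. Of these 32, 0 were at least 2-fold higher and 0 at least 2-fold lower, against 0.767% and 1.36% of all genes. At 1.5-fold the counts were again 0 and 0, against 2.76% and 5.57% of all genes. The small shares among all genes mean that few of 32 genes would be past either fold if they were like the rest. The median log2 ratio was 0.01 for the 32 sterol genes and -0.13 for all genes. Their log2 ratios ran between -0.41 and 0.43, and 23 of the 32 lay above the median gene. The counting interval lay wholly above 1 for 12 of the 32 and wholly below 1 for 8, against 18.7% and 48.6% of all genes. It covered 1 for the remaining 12.

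**Figure D1:**
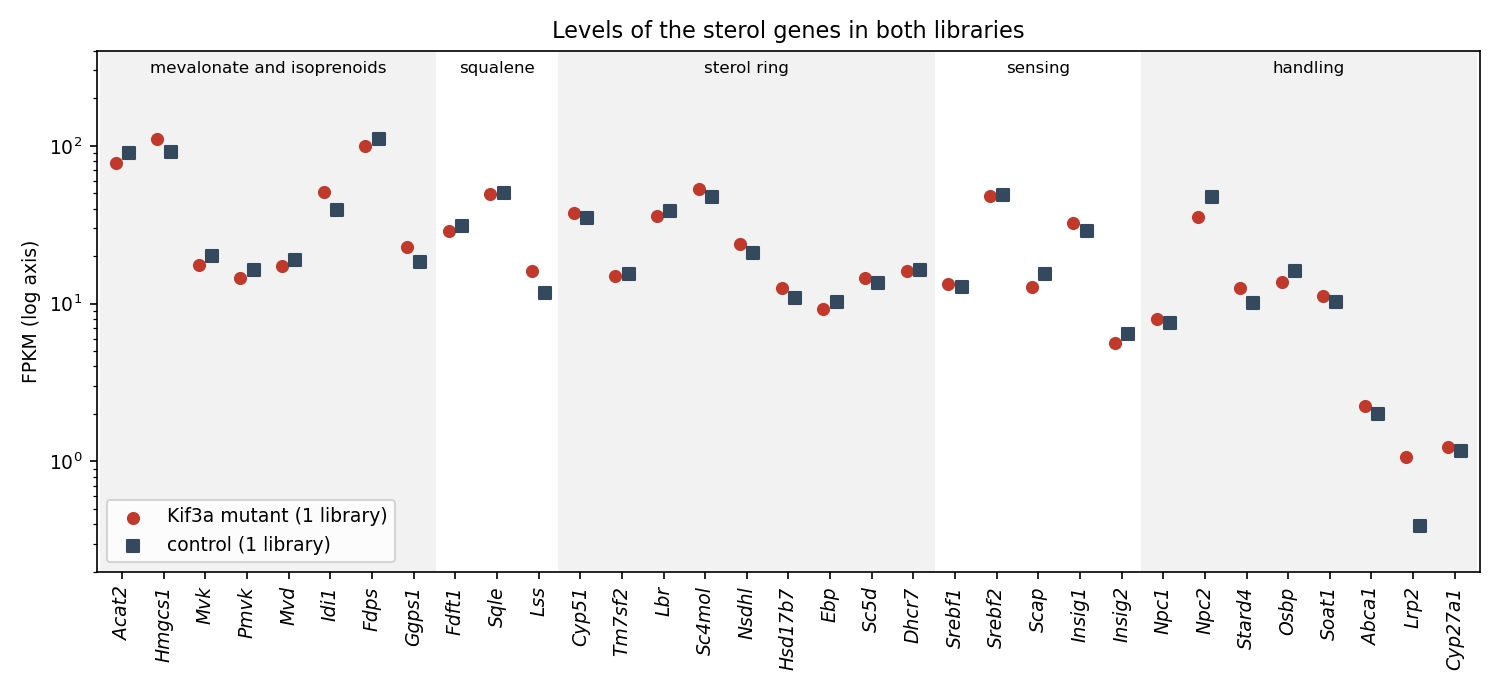
FPKM of the 33 sterol genes (log axis) in the Kif3a mutant library (circles, left) and the control library (squares, right), ordered by step or role; there is 1 library per group and no error bar. Each pair of points lies close together, from Hmgcs1 at 109.9 FPKM in the mutant and 91.5 in the control down to Lrp2 at 1.06 in the mutant and 0.390 in the control, and Lrp2 shows the widest gap.

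All synthesis enzymes of the list were expressed in both libraries. The 19 synthesis enzymes summed to 699 FPKM in the mutant and 687 in the control. Their lowest and highest members differed 11.8-fold in the mutant and 10.8-fold in the control. Per length, the genes of the first steps and of farnesyl diphosphate synthesis were the most abundant, and Ebp was the least abundant enzyme. Across the 33 genes the Spearman correlation of the levels in the libraries was 0.973, a description over genes that share both libraries.

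Without correction for transcript length, the steps up to farnesyl diphosphate did not share a direction. Acat2, the cytosolic thiolase that opens the pathway, stood at 77.4 FPKM in the mutant and 89.6 in the control, a ratio of 0.863 (0.828 to 0.899). Hmgcs1, which makes HMG-CoA in the next step, stood at 109.9 FPKM in the mutant and 91.5 in the control, a ratio of 1.20 (1.17 to 1.24), and was the most abundant sterol gene of the mutant library. Both kinases of mevalonate were slightly lower in the mutant: Mvk stood at 17.7 FPKM in the mutant and 19.9 in the control, and Pmvk at 14.5 FPKM in the mutant and 16.4 in the control. Mvd, the decarboxylase that yields isopentenyl diphosphate, stood at 17.3 FPKM in the mutant and 18.96 in the control. These 3 genes had log2 ratios of -0.16, -0.16 and -0.12, close to the median gene. Idi1, the isomerase of isopentenyl diphosphate, lay apart from them at 50.8 FPKM in the mutant and 39.3 in the control, a ratio of 1.29 (1.23 to 1.36). Its log2 ratio of 0.36 was higher than that of 93.2% of all genes. Fdps, which makes farnesyl diphosphate, stood at 99.4 FPKM in the mutant and 111 in the control, a ratio of 0.895 (0.854 to 0.939), and was the most abundant sterol gene of the control library. Over these 7 genes the median log2 ratio was -0.16, with 3 above and 4 below the median gene. With the trend of log2 ratio on transcript length removed, their median was 0.10, with 6 above and 1, Acat2, below the trend. Ggps1, which turns farnesyl diphosphate into the precursor of geranylgeranyl anchors, stood at 22.7 FPKM in the mutant and 18.5 in the control, a ratio of 1.23 (1.14 to 1.33).

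Among the enzymes from squalene to lanosterol, the last one stood out. Fdft1, squalene synthase, stood at 28.98 FPKM in the mutant and 30.8 in the control, where its main transcript carried the status LOWDATA in place of OK. Sqle, squalene epoxidase, stood at 49.2 FPKM in the mutant and 49.9 in the control. Lss, the cyclase that closes the rings to lanosterol, stood at 16.1 FPKM in the mutant and 11.7 in the control, a ratio of 1.37 (1.26 to 1.49). With a log2 ratio of 0.43 it was the highest of the 32 sterol genes over the filter, above 94.8% of all genes. On GRCm38, Lss lies on chromosome 10 from 76531627 to 76553934 and Idi1 on chromosome 13 from 8885606 to 8892396.

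The enzymes that trim lanosterol to cholesterol were at like levels in both libraries, and 8 of these 9 lay above the median gene. The 3 that act together to remove methyl groups were each somewhat higher in the mutant. Sc4mol, the oxidase of that group, stood at 52.9 FPKM in the mutant and 47.1 in the control, a ratio of 1.12 (1.06 to 1.19). Nsdhl, the decarboxylating dehydrogenase, stood at 23.8 FPKM in the mutant and 20.9 in the control, a ratio of 1.14 (1.05 to 1.23). Hsd17b7, the reductase that completes the reaction, stood at 12.5 FPKM in the mutant and 10.9 in the control, a ratio of 1.15 (1.06 to 1.24). Cyp51, the demethylase that acts before them, stood at 37.8 FPKM in the mutant and 34.6 in the control, a ratio of 1.09 (1.04 to 1.14). Tm7sf2 and Lbr encode sterol reductases for the same step, and the Lbr protein also binds lamin B at the nuclear envelope. Tm7sf2 stood at 14.9998 FPKM in the mutant and 15.4 in the control, a ratio of 0.972 (0.864 to 1.09), and Lbr at 35.9 FPKM in the mutant and 38.5 in the control, a ratio of 0.932 (0.888 to 0.978). Ebp, the isomerase of the sterol ring, stood at 9.29 FPKM in the mutant and 10.3 in the control, with an interval of the ratio from 0.790 to 1.03. Sc5d, a desaturase, stood at 14.6 FPKM in the mutant and 13.4 in the control. Dhcr7, a late reductase, which is mutated in human Smith-Lemli-Opitz syndrome, stood at 15.98 FPKM in the mutant and 16.3 in the control, a ratio of 0.982 (0.904 to 1.07). For Ebp, Sc5d, Tm7sf2 and Dhcr7 the counting interval alone covers a ratio of 1.

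**Figure D2:**
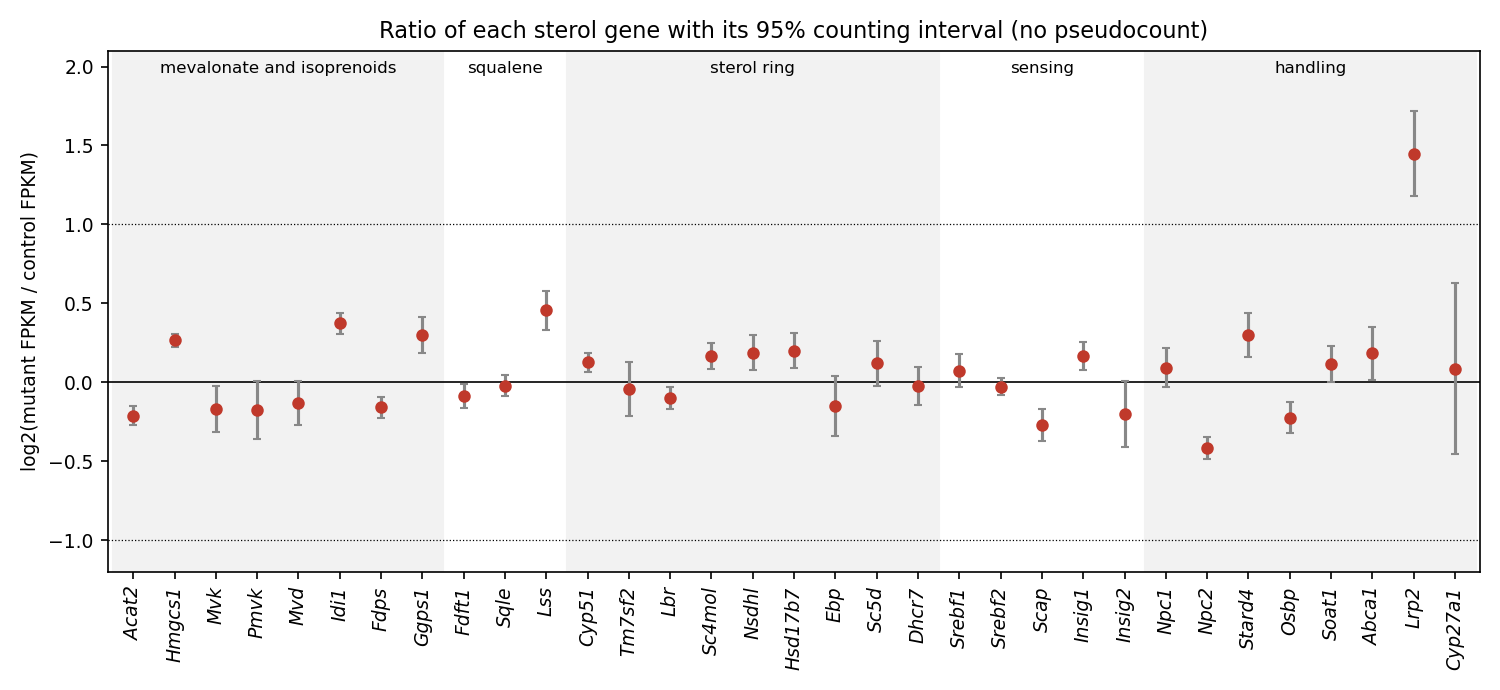
Log2 of mutant FPKM over control FPKM for each sterol gene, without a pseudocount, with bars for the 95% counting interval; dotted lines mark 2-fold, and there is 1 library per group. All genes but Lrp2 lie between the dotted lines, with Lss at a ratio of 1.37 the next highest and Npc2 at 0.749 the lowest.

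The sensors of sterol differed little between the libraries. Srebf2, the SREBP gene that chiefly drives cholesterol synthesis, stood at 47.99 FPKM in the mutant and 48.9 in the control, a ratio of 0.981 (0.945 to 1.02). Srebf1, whose products chiefly drive fatty acid synthesis, stood at 13.3 FPKM in the mutant and 12.7 in the control, a ratio of 1.05 (0.978 to 1.13). Scap, their escort, was the lowest of the sensors relative to the control, at 12.8 FPKM in the mutant and 15.5 in the control, a ratio of 0.830 (0.773 to 0.891). The retention factors had ratios on either side of 1. Insig1, itself a target of SREBP proteins, stood at 32.2 FPKM in the mutant and 28.6 in the control, a ratio of 1.12 (1.06 to 1.20), and Insig2 at 5.59 FPKM in the mutant and 6.42 in the control, a ratio of 0.870 (0.752 to 1.01). The median log2 ratio of the 5 sensors was -0.03.

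Among the genes that carry, store and break down sterols, Npc2 was the lowest and Lrp2 the highest. Npc2, on chromosome 12 from 84754559 to 84773112, encodes the soluble lysosomal protein that hands cholesterol to Npc1. It stood at 35.5 FPKM in the mutant and 47.4 in the control, a ratio of 0.749 (0.715 to 0.785), and its log2 ratio of -0.41 was the lowest of the 32. The membrane partner Npc1 did not share this and stood at 8.04 FPKM in the mutant and 7.55 in the control, a ratio of 1.07 (0.977 to 1.16). Macrophage and endothelial markers were also lower in the mutant library. The 9 macrophage markers found summed to 14.5 FPKM in the mutant and 24.3 in the control, with Lyz2 at 0.952 FPKM in the mutant and 2.86 in the control and C1qb, the most abundant on the mean of both libraries, at 3.47 in the mutant and 3.82 in the control. The 8 endothelial markers summed to 50.5 FPKM in the mutant and 73.4 in the control, with 0 markers of either list at 0. The part of these cells in the value of Npc2 was not tested, and in a bulk sample fewer cells of a type and less RNA per cell cannot be told apart.

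Stard4, a soluble sterol carrier and a target of SREBP proteins, stood at 12.5 FPKM in the mutant and 10.2 in the control, a ratio of 1.23 (1.12 to 1.35). Osbp, which exchanges cholesterol for a phosphoinositide between endoplasmic reticulum and Golgi, stood at 13.7 FPKM in the mutant and 15.98 in the control, a ratio of 0.856 (0.800 to 0.915). Soat1, which esterifies cholesterol for storage, stood at 11.1 FPKM in the mutant and 10.3 in the control. Abca1, the exporter of cholesterol to apolipoproteins, stood at 2.26 FPKM in the mutant and 1.99 in the control, a ratio of 1.14 (1.01 to 1.28). Cyp27a1, a mitochondrial sterol hydroxylase, stood at 1.24 FPKM in the mutant and 1.17 in the control on about 66 fragments in the mutant and 55 in the control, and its interval ran between 0.730 and 1.54. The median log2 ratio of the 7 handling genes over the filter was 0.08, with 5 above and 2 below the median gene.

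Lrp2 was the only sterol gene under the filter and the only one with more than a 2-fold difference in plain FPKM. It encodes megalin, an endocytic receptor of epithelia that takes up lipoproteins and also binds Shh. It stood at 1.06 FPKM in the mutant and 0.390 in the control, on about 441 fragments in the mutant and 153 in the control, a ratio of 2.72 (2.26 to 3.29). Its log2 ratio with the pseudocount of 1 was 0.57, and at this low level the value depended on the pseudocount, with 1.25 at 0.1 FPKM and 0.17 at 5 FPKM. The gene lies on chromosome 2 from 69424335 to 69586067, and its main transcript has 15467 bases, the longest among the sterol genes. Genes with main transcripts over 5000 bases had a median log2 ratio of 0.11, against -0.13 for all genes, and with the trend removed the log2 ratio of Lrp2 was -0.002. That value starts from the ratio already shrunk by the pseudocount of 1 and from a trend fitted on genes over the filter, so it does not show how much of the plain ratio goes with length. Epithelial markers were also higher: the 10 markers summed to 202 FPKM in the mutant and 183 in the control, with 0 at 0 and 7 of 10 above the median gene. They differed among themselves: the keratin gene Krt18 stood at 28.1 FPKM in the mutant and 19.9 in the control, and Krt15 at 6.39 FPKM in the mutant and 15.2 in the control. Their part in the value of Lrp2 was not tested.

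Transcript length moved with the log2 ratio over the whole table. Over the 12259 genes, a correlation across genes that are no independent replicates, log2 ratio and length had a Spearman coefficient of 0.407. Among the 32 sterol genes it was 0.195, over genes that share both libraries. Among genes with main transcripts of 1500 to 3000 bases the median log2 ratio was 0.05 for the 15 sterol genes and -0.19 for all 4414 genes. At 3000 to 5000 bases it was 0.02 for the 12 sterol genes and -0.08 for all 3457 genes. Up to 1500 bases it was -0.16 for 3 sterol genes and -0.27 for all 2509 genes. Over 5000 bases the 2 sterol genes over the filter did not stand above the rest, at 0.10 against 0.11 for all 1879 genes. With the length trend removed, 17 of the 19 synthesis enzymes lay above the trend, at a median of 0.12, and Acat2 (-0.02) and Lbr (-0.002) lay just below it. Lss (0.55), Idi1 (0.50), Ggps1 (0.45), Stard4 (0.41) and Hmgcs1 (0.38) were highest on this scale, and Npc2 (-0.29), Abca1 (-0.22), Scap (-0.20) and Osbp (-0.19) were lowest. For Abca1, with a transcript of 10260 bases, removal of the trend turned the sign from positive to negative. Several synthesis enzymes turned the other way. Before removal, 8 of the 19 had positive log2 ratios, at a median of -0.02, against 17 after it. These counts have unlike baselines, since the trend was fitted to all genes, whose median was -0.13. Before removal, 14 of the 19 already lay above the median gene. Centring on the median gene alone gave the enzymes a median of 0.11.

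**Figure D3:**
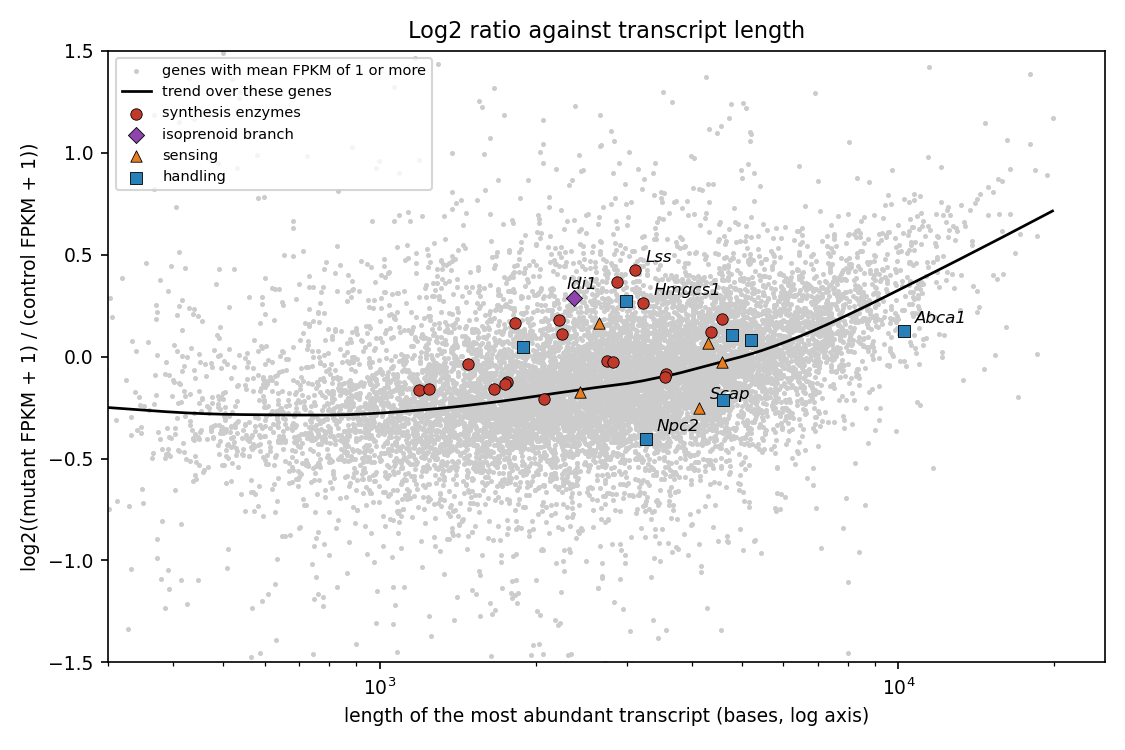
Log2 ratio with a pseudocount of 1 against the length of the most abundant transcript (log axis) for the genes with a mean of at least 1 FPKM (grey) and the 32 sterol genes over that filter (coloured by role); the line is the trend over all these genes. Most synthesis enzymes lie above the line, 17 of 19, while Npc2, Scap, Osbp and Abca1 lie below it; points beyond a log2 ratio of 1.5 are outside the frame.

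The control regions of Lss, Idi1 and Hmgcs1 (high ratios), Npc2 (the lowest ratio) and Insig1 (a known SREBP target) are shown next, because synthesis genes are known to be read by SREBP proteins together with the general factors NF-Y and Sp1. The window of Ggps1, with a ratio of 1.23 against 1.20 for Hmgcs1, is not printed. Promoter windows of RefSeq on GRCm38.p6 (250 bases before to 50 after the annotated start, nearest to the start of the main transcript) were found for 28 of the 33 genes, 16 of them synthesis enzymes. No window was matched for Fdps, Fdft1, Sqle, Npc1 and Stard4. Each line holds the 230 bases before the start, 5′ to 3′ on the strand of the gene, at chr13:119690121-119690350 (plus strand) for Hmgcs1, chr13:8885376-8885605 (plus) for Idi1, chr10:76531375-76531604 (plus) for Lss, chr5:28071182-28071411 (plus) for Insig1 and chr12:84773113-84773342 (minus) for Npc2. Capitals mark the NF-Y box CCAAT, read as ATTGG on the other strand, and the sterol response element core TCACNCCAC.
Hmgcs1: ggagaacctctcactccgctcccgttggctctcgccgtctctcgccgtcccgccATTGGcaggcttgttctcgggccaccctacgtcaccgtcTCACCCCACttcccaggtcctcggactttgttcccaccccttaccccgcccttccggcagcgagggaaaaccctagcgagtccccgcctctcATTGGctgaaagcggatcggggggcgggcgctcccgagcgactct
Idi1: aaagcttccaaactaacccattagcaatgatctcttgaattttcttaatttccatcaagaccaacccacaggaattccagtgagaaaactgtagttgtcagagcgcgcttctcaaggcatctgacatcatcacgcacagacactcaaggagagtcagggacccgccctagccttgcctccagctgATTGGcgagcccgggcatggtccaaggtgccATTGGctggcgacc
Lss: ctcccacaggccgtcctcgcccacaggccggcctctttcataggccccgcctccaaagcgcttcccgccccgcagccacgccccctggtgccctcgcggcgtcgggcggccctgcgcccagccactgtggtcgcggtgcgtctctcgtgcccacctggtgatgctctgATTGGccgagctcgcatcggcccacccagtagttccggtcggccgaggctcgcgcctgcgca
Insig1: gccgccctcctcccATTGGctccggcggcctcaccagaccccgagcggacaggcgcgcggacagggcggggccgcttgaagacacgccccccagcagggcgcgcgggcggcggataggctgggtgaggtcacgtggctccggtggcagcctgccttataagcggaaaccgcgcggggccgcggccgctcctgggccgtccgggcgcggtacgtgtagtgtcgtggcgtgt
Npc2: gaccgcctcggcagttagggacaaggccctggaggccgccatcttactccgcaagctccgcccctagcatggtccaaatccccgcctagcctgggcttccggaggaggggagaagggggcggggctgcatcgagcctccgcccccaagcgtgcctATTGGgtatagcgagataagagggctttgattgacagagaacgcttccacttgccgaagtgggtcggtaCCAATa

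The Hmgcs1 window held the core of the sterol response element 137 bases before the start, with NF-Y boxes at 176 and 45 bases and another at 237 bases, just outside the stretch printed. Of the 28 windows, only that of Hmgcs1 held this core. The start used lies 111 bases from that of the main transcript in the tables for Hmgcs1 and 22 bases from it for Lss. Idi1, with a ratio of 1.29, had NF-Y boxes at 45 and 14 bases, and Lss, with the highest ratio of the 32 genes over the filter, 1.37, had 1 at 62 bases. Insig1 had an NF-Y box at 216 bases and an E-box, CACGTG, at 101 bases. Npc2, the gene with the lowest ratio, had NF-Y boxes at 75 and 6 bases. Among the printed genes, NF-Y boxes thus occurred both in genes higher and in the gene lowest relative to the control. Over the list, 20 of 28 windows held CCAAT. Those without it were of Acat2, Pmvk, Dhcr7, Insig2 and Scap, with ratios under 1, and of Srebf1, Abca1 and Lrp2, with ratios over 1. Whether the box goes with the ratio was not tested.

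In the windows of the 16 enzymes, searched on both strands, CCAAT was present in 13 (81.25%), against 39.5% of 8507 genes over the filter with a window and 37.4% of all 32851 windows. Acat2, Pmvk and Dhcr7 were the enzymes without it. The GC box GGGCGG, a site of Sp1, was present in 15 of the 16 (93.75%), against 69.4% of the genes over the filter. The E-box was present in 2 of the 16, Hsd17b7 and Sc5d (12.5%), against 10.5%, and the core TCACNCCAC in 1, Hmgcs1 (6.25%), against 1.01%. By their positions the matches in these 5 printed genes do not overlap one another, and a match is a description of the letters and not a binding site.

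Of the 33 genes, 24 have more than 1 annotated transcript, and for some a difference lay in only 1 of them. The 4587-base transcript of Osbp stood at 11.2 FPKM in the mutant and 11.3 in the control. The 3866-base transcript of Osbp, which the tables place on chromosome 19 from 11977016 to 11994114, while the longer one begins at 11965844, stood at 2.45 FPKM in the mutant and 4.70 in the control, a ratio of 0.520 (0.445 to 0.606). Scap showed a like split: the 4130-base transcript stood at 8.95 FPKM in the mutant and 9.10 in the control, and the 4286-base transcript at 3.87 FPKM in the mutant and 6.35 in the control, a ratio of 0.610 (0.541 to 0.688). For Tm7sf2 the main transcript stood at 10.5 FPKM in the mutant and 13.2 in the control, while the other 4 summed to 4.47 FPKM in the mutant and 2.24 in the control. The 2435-base main transcript of Insig2 stood at 4.62 FPKM in the mutant and 6.02 in the control, a ratio of 0.768 (0.658 to 0.897). Its 2454-base transcript stood at 0.678 FPKM in the mutant and 0.342 in the control. A minor 2652-base transcript of Sqle stood at 1.98 FPKM in the mutant and 0.182 in the control, and a 2040-base transcript of Soat1 at 0.992 FPKM in the mutant and 0.263 in the control. These intervals leave out the error of assigning fragments to overlapping transcripts, which the tables do not give.

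Some of the genes share exon sequence with a neighbour, and the strandedness of the libraries is not given in the sources used here. In the GENCODE annotation of GRCm38, 774 of the 4227 exon bases of Fdft1 also belong to Ctsb on the opposite strand, and 257 of the 4721 of Ggps1 to Arid4b. Of Fdps, 1124 of 4208 exon bases are shared with a predicted gene on the same strand. Shared bases made up 13.2% of Scap, 12.1% of Hmgcs1, 12.1% of Tm7sf2, 9.24% of Lbr and 9.21% of Idi1. Of these shares, only that of Tm7sf2, with Vps51, lay on the same strand. A further 1.45% of Lbr was shared with a ribosomal RNA gene on its own strand. Smaller shares were found for Lss, Cyp51, Srebf1 and Npc1. The levels of all these genes are uncertain by the reads that such bases take up.

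The other genes of sterol metabolism lay slightly below the median gene. All 44 further genes of sterol transport, uptake, breakdown and regulation were in the tables, and 39 passed the filter. Their median log2 ratio was -0.21, with 15 above and 24 below the median gene. At 1.5-fold, 2 of the 39 were higher and 1 was lower in the mutant, against 2.76% and 5.57% of all genes, so neither count stands apart from that background. The higher ones were receptors of the same family as megalin. Lrp1, an endocytic receptor for many ligands, stood at 16.7 FPKM in the mutant and 8.97 in the control, a log2 ratio of 0.83, or 0.28 once the length trend of its 14891-base transcript was removed. Lrp8, the reelin and apolipoprotein receptor, stood at 5.27 FPKM in the mutant and 3.16 in the control, a log2 ratio of 0.59, or 0.43 without the trend. Mylip, a ubiquitin ligase that removes lipoprotein receptors, stood at 6.99 FPKM in the mutant and 11.01 in the control, a log2 ratio of -0.59. Pgrmc1, a haem-binding partner of sterol-making cytochromes and the most abundant of the list, stood at 79.5 FPKM in the mutant and 89.5 in the control.

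The fatty acid genes under SREBP control lay slightly above the median gene. Of 14, 13 passed the filter, with a median log2 ratio of 0.06, and 9 lay above the median gene. Scd2, a desaturase and the most abundant, stood at 249 FPKM in the mutant and 237 in the control. Fasn, fatty acid synthase, stood at 41.4 FPKM in the mutant and 29.6 in the control, a log2 ratio of 0.47 that was 0.15 without the length trend, and Acaca, acetyl-CoA carboxylase, had 0.31, or 0.04 without it. Mid1ip1, an activator of that carboxylase, was lower, at 5.56 FPKM in the mutant and 9.87 in the control, a log2 ratio of -0.73. The 12 users of isoprenoids had a median of -0.19, with 4 above and 8 below the median gene. Removal of the length trend turned the side of this list, to a median of 0.03 with 7 above and 5 below the trend. Among them the dolichol kinase gene Dolk had a log2 ratio of -0.53 and the farnesyltransferase subunit gene Fntb -0.37, and Rabggtb, the most abundant on the mean of both libraries, stood at 33.1 FPKM in the mutant and 37.8 in the control.

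The Hedgehog genes listed for products that carry or bind sterol, and Hhat listed with them, differed from each other. Of 9, 8 passed the filter, with a median log2 ratio of -0.13, the same as that of all genes to the printed digits. Shh stood at 9.39 FPKM in the mutant and 4.06 in the control, a ratio of 2.31 (2.01 to 2.67), and Scube1, of the family that helps release the lipid-bearing ligand, at 6.11 FPKM in the mutant and 11.7 in the control, a log2 ratio of -0.84. Hhat, which attaches palmitate to Shh, had a log2 ratio of -0.37. Without the length trend the log2 ratios of Shh, Scube1 and Hhat were 1.19, -1.03 and -0.23. Smo, the most abundant, stood at 64.7 FPKM in the mutant and 71.1 in the control.

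**Figure D4:**
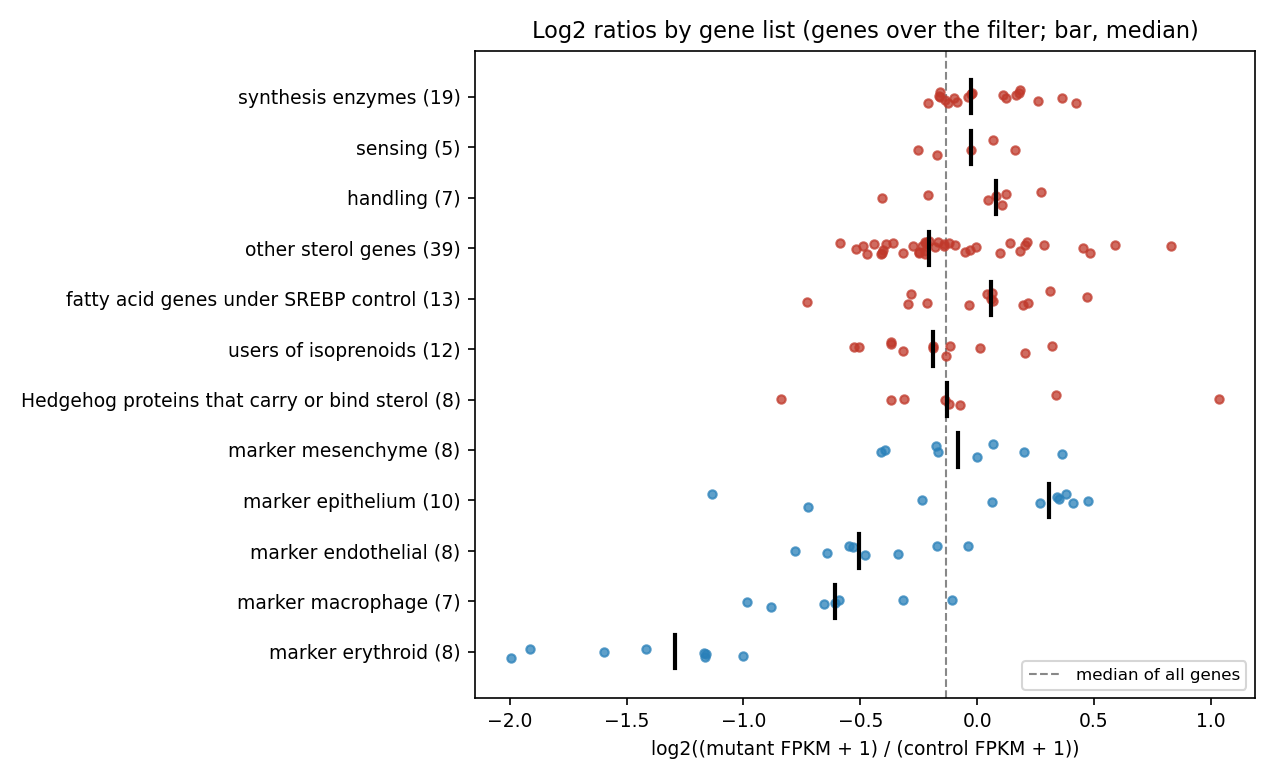
Log2 ratios with a pseudocount of 1 of the genes over the filter, by list (number of genes in brackets; sterol-related lists in red, cell type markers in blue); the vertical bar is the median of a list and the dashed line the median of all genes, -0.13. The synthesis enzymes, sensors and handling genes cluster near 0, with medians of -0.02, -0.03 and 0.08, while erythroid markers lie at a median of -1.29.

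Among the marker lists, erythroid and muscle genes had the lowest medians, both further from 0 than any sterol gene over the filter. The 8 erythroid markers summed to 6953 FPKM in the mutant and 24018 in the control, and all 8 were at least 2-fold lower in the mutant. The 7 muscle markers summed to 11.9 FPKM in the mutant and 40.1 in the control, the 6 neuronal markers to 19.2 FPKM in the mutant and 18.4 in the control, and the 5 glial markers to 6.69 FPKM in the mutant and 9.54 in the control, with 0 markers at 0. The neuronal markers differed in direction: Isl1 stood at 9.62 FPKM in the mutant and 5.53 in the control, and Tubb3 at 6.29 FPKM in the mutant and 8.92 in the control. Hbb-y, an embryonic globin and the most abundant marker, stood at 3572 FPKM in the mutant and 13483 in the control. Globin fragments count in the total by which every FPKM is scaled, and their part in the small ratios of the sterol genes was not tested.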

How the data were processed

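RNA of the mandibular prominence was measured in 2 libraries, 1 Kif3a mutant and 1 control. The authors deposited 1 table per library with a coverage signal and an FPKM value per transcript, per the file headers. Cufflinks is named only in the naming of the tables. Aligner, tool versions and strandedness were not given in the sources used here. Although mm9 is the build in the submitters' processing notes, 72.06% of 45475 transcripts with a shared symbol had a start or end identical to the GENCODE annotation of GRCm38, so coordinates are given 1-based on GRCm38.

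From each library's file 65 lines were left out, because a gene name with spaces displaced their columns, and 59055 transcripts were used. FPKM was summed per gene symbol. Fragments were approximated as coverage times length divided by the yield of 1 fragment, 153 bases in the mutant and 156 in the control. The length trend is a lowess curve (statsmodels 0.14.6, fraction 0.3) of log2 ratio on log2 length of the most abundant transcript. The computation of intervals and trend was checked on simulated data with counting error alone and a known slope. Such data cannot test the fragment yield, the assignment to transcripts or the spread between libraries. Python 3.11.15, pandas 2.3.3 and scipy 1.17.1 were used. The alternatives were other pseudocounts, filters, scalings, the length trend, the most abundant transcript alone and transcripts of status OK alone.

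All sterol genes of the list are named. From each other list, the most abundant gene and up to 3 genes with the largest absolute log2 ratio over the filter are named, except that marker lists are given mainly as sums and 1 gene that the rule names is not reported here. The members and lists were chosen with earlier results of these data known. No p-value was computed.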

Additional observations from a re-analysis of the deposited data

How the results depend on the processing

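The counts of 0 sterol genes at 2-fold held under all 11 alternatives, in both directions. The alternatives were not combined, so these counts could not include Lrp2. With a pseudocount of 0.1 its log2 ratio was 1.25, but the filter left it out. With no filter the pseudocount of 1 gave it 0.57. The count at least 1.5-fold lower was 0 under all of them too. The count at least 1.5-fold higher was 14 with TPM-like scaling, against 24.5% of all genes, and 2 with TPM-like scaling without transcripts under 200 bases, against 6.87% of all genes. It was 0 under the other 9, also with no filter, where Lrp2 is counted. The median log2 ratio of the sterol genes was 0.14 after centring on the median gene, 0.54 with TPM-like scaling and 0.24 with TPM-like scaling without short transcripts. The median of the synthesis enzymes was 0.11 after centring, 0.10 with scaling to the 75th percentile, 0.53 and 0.23 with both kinds of TPM-like scaling and 0.12 with the length trend removed. These shifts follow the scale, since the median of all genes was 0.39 and 0.11 under both kinds of TPM-like scaling. The synthesis enzymes stood above the median gene by 0.07 to 0.14 under every alternative with a filter. With no filter, where genes listed at 0 in both libraries set the median gene to 0, they stood at -0.02. Relative to the median gene, 15 of the 33 genes were above it under all 11 alternatives, 3 (Acat2, Insig2 and Npc2) were below it, and 15 lay on both sides. No paired analysis was possible because each group is 1 library. The counting interval covered a ratio of 1 for 12 of the 32 genes over the filter, so depth limits their small differences. Cyp27a1 had the fewest fragments, about 55 in the control. The number of libraries limits every comparison.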
